A study of Triticum aestivum with 24 samples.

Results

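On wheat flag leaf arrays, 150 of 61115 probe sets were chosen because drought went with a lower signal in the parent C306 and a higher signal in the parent WL711. A probe set is a group of short probes on the array that reads 1 transcript or a few related ones. The deposited signal of every array was turned into log2(signal + 16), the median of the 3 arrays of a group was taken, and each probe set was scored by the smaller of the C306 difference, irrigated minus drought, and the WL711 difference, drought minus irrigated. The members were thus chosen by their measured signals in the parents, and the 150 highest scores made the set. The material was bread wheat, Triticum aestivum, with RNA from flag leaves at the reproductive stage. There were 8 groups of 3 arrays, 24 in all: WL711, labelled drought susceptible, C306, labelled drought tolerant, a susceptible bulk and a tolerant bulk, each under irrigation and under drought. Each bulk was a pool of 10 recombinant inbred lines (RILs), so a bulk gave 1 averaged signal and not the signal of any line. The tissue and stage were shared by all 8 groups, while the sources used here gave neither the length nor the severity of the drought. The series design text called the arrays biological replications without saying that they came from separate plants, so a p-value measures array-to-array spread, part of which may be technical.

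The flag leaf is the last leaf to unfold before the ear, and its photosynthesis feeds the developing grain. Under water deficit the plant hormone abscisic acid closes stomata and switches on protective genes such as those of dehydrins, while genes of carbon fixation often fall. Recombinant inbred lines descend from a cross by repeated selfing, which fixes a different mix of the parents' alleles in each line, so a pool of lines sorted by a trait keeps parental differences tied to that trait and averages many others. Background of that kind says nothing of the probe sets described here, whose genes are for the most part unnamed.

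The leaf label was set against marker transcripts. Mean signals of the 35 probe sets on the photosynthesis list ran from 10.6 to 79131 with a median of 77.8, the brightest being one of rbcl, the large subunit of the carbon-fixing enzyme Rubisco. The 3 glutenin probe sets, of grain endosperm, lay between 24.4 and 117, inside that range. Signals of different probe sets cannot be set against each other as levels, so the check says only that some photosynthesis transcripts gave very bright signals. Arrays of 1 group correlated at 0.893 to 0.973 over the tested probe sets. The lowest value, and the next at 0.908, both involved WL711 drought array 1, which stood apart from arrays 2 and 3 (0.955 with each other). A check chosen after the data were seen used 53 probe sets with signals under 100 on every irrigated WL711 array and over 1000 on every irrigated C306 array. On WL711 drought array 1, 19 of them were over 1000, against 0 on array 2 and 0 on array 3. Of 34 probe sets with the reverse pattern, 13 were under 100 on WL711 drought array 1, against 3 on each of arrays 2 and 3. WL711 drought array 1 thus carried signals of transcripts that were low on every irrigated array with its label, and the counts and medians of the parents that rest on it are also given without it, an alternative chosen after the data were seen. The hybridisation spike-in signal averaged log2 14.1 and 13.6 on C306 drought arrays 1 and 3 and lay between 11.6 and 12.7 on all other arrays. Tolerant bulk drought array 3 had a highest signal of 47272, against 110365 and 107679 on arrays 1 and 2 of its group. Its median over the tested probe sets, log2 8.22, was the highest of all arrays, against 7.91 on each of those arrays. The part of this in the results was not tested.

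The rule itself fixed the direction in both parents, so the values here are a description and carry no test. The score ran from 1.28 to 2.88, which is a fold of 2.42 to 7.35 in the parent with the smaller difference, with a median of 1.41, against a median of -0.43 over all probe sets. The C306 difference, irrigated minus drought, had a median of 1.56 and ran to 7.57, and the WL711 difference, drought minus irrigated, had a median of 1.59 and ran to 4.29. The smaller difference was that of C306 for 77 members and that of WL711 for 73. At the same threshold, 165 probe sets met the opposite pattern, 719 were higher under drought in both parents and 623 were lower in both. The threshold fell in a dense part of the distribution. The last members were Ta.14215.1.A1_at, Ta.30807.3.S1_at, Ta.27763.1.S1_at, Ta.15961.1.S1_at and TaAffx.58655.1.S1_x_at, all at 1.28, and the first probe sets left out were TaAffx.12166.1.A1_at, TaAffx.31811.2.S1_at, TaAffx.26247.1.S1_at, Ta.10364.1.S1_at and Ta.17228.1.A1_at, all at 1.27.

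**Figure D1:**
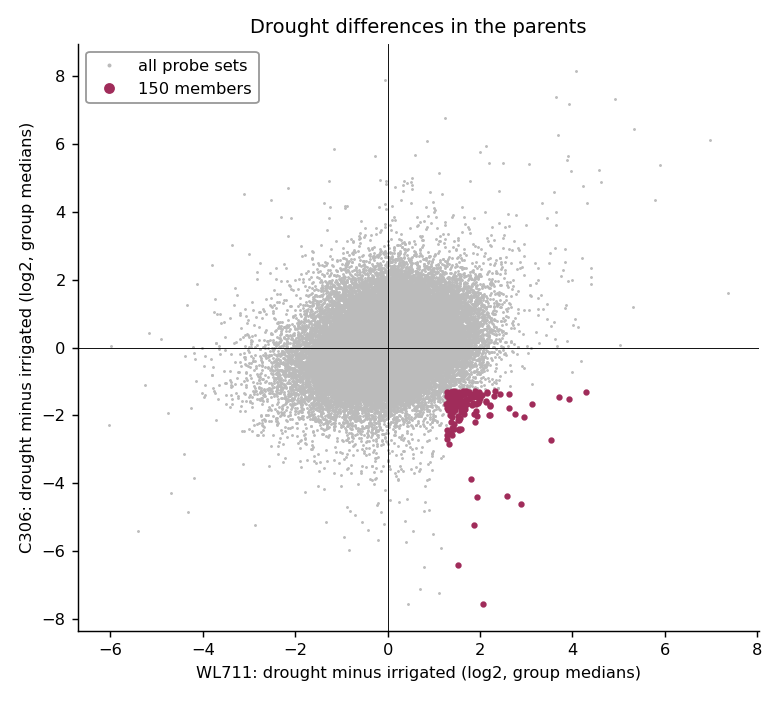
Difference in log2(signal + 16), drought minus irrigated, of group medians in WL711 (horizontal axis) and in C306 (vertical axis) for 61115 probe sets, with the 150 members in colour. The members fill the corner where WL711 was higher and C306 lower under drought by at least 1.28.

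The groups of 3 arrays did not always part, even though the medians did. In C306, all irrigated arrays were above all drought arrays for 68 members (45.3%, against 13.4% of all probe sets), and in WL711 all drought arrays were above all irrigated arrays for 66 (44%, against 13.5%). Both held for 37 members (24.7%, against 1.24%), and since the rule used these arrays nothing is read from that share. Without WL711 drought array 1, the other drought arrays of WL711 were above the irrigated ones for 113 members (75.3%, against 28.5%) and both parents were apart for 53 (35.3%, against 2.05%), with 2 arrays in place of 3. WL711 drought array 1 was the one nearest to the irrigated arrays for 94 members, against 24 and 32 for arrays 2 and 3. When the score was computed without it, 123 of the 150 still passed the threshold, 113 were among the 150 highest scores, and the WL711 difference of every member stayed above 0, the lowest being 0.52. The median WL711 difference was then 1.69. Without C306 drought arrays 1 and 3, the 2 arrays with the bright spike-in, the median C306 difference was 1.64.

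Taken by group, the members were low in irrigated WL711, with a median signal of 13.6 against 60.3 for all probe sets, and in C306 under drought, with 18.7 against 80.9. They were high in WL711 under drought, at 82.9 against 66.7 (87.6 against 67.8 without WL711 drought array 1), and in irrigated C306, at 94.0 against 68.4. The bulks lay between these extremes, at 55.5 and 67.1 in the susceptible bulk and 64.05 and 58.2 in the tolerant bulk, irrigated first and drought second. Among the 8 group medians, the highest was that of irrigated C306 for 64 members and that of WL711 under drought for 40 (58 and 44 without WL711 drought array 1), and the lowest was that of irrigated WL711 for 78 and of C306 under drought for 39. The rule asks for a fall in C306 and a rise in WL711, and the sum of these is the same as the parental gap under irrigation plus the reverse gap under drought, so a change of order between the parents is part of the choice and no finding. C306 was above WL711 in 148 of 150 members under irrigation, by a median of log2 1.80, and below it in 145 under drought, by a median of log2 -1.52, or in 140 without WL711 drought array 1. Irrigated arrays of the parents did not overlap in 91 members with C306 above (18.1% of all probe sets), and drought arrays in 44 with WL711 above (7.78% of all probe sets), or in 85 (14.3%) without WL711 drought array 1.

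**Figure D2:**
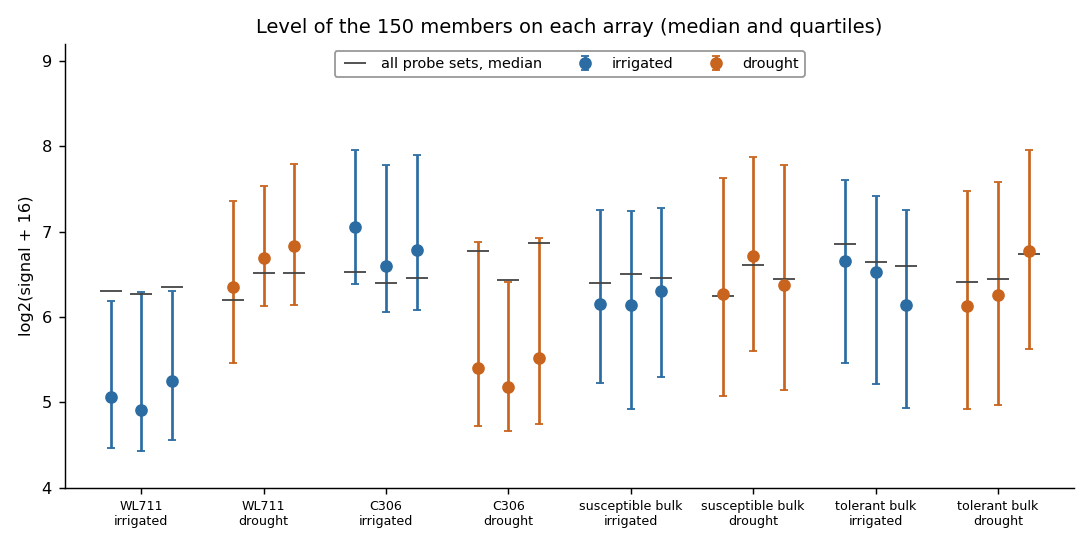
Median (point) and quartiles (bars) of log2(signal + 16) over the 150 members on each of the 24 arrays, irrigated in blue and drought in orange, with the median over all probe sets as a short line. The points of irrigated WL711 and of C306 under drought lie well below the line, and those of both bulks lie near it.

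Many members were dim. Their mean signal over all arrays had a median of 65.8, against 74.9 for all probe sets, and ran from 15.02 to 13615, with 16 members above 1000. Only 93 of the 150 were above the filter on low values, a signal level of 39.1, and could enter the tests below. Both parents' groups were apart in 11 of 16 members with a mean signal above 1000 (68.8%, against 4.22% of all probe sets at that level), in 17 of 38 between 100 and 1000 (44.7%, against 1.55%) and in 9 of 96 at or under 100 (9.38%, against 0.273%). The shares were lower at lower signal in all probe sets too, and these are the arrays that the rule used. The probe set types were close to those of the whole array. Identifiers starting with TaAffx made up 46% of the members and 48.6% of all probe sets, and the suffix _x_at, which marks probes shared between transcripts, made up 10% and 11.1%. The identifiers named 145 sequence clusters, so nearly every member came from a cluster of its own.

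Only 4 members had a gene name in the platform annotation, which named 1273 probe sets of 771 genes. Of these members, 3 read rbcl (LOC100049018), the gene of the large, catalytic subunit of Rubisco, and 1 read LOC543369, for which no function is stated. The array held 28 rbcl probe sets, and their scores ran from -3.20 to 2.58 with a median of -0.13, so most of them did not share the pattern: WL711 was higher under drought in 25, but C306 was lower under drought in 13. The signals of TaAffx.128414.72.S1_at were 1951, 9821 and 7253 in irrigated C306 and 299.7, 4144 and 333 under drought. In WL711 they were 1078, 1357 and 374 under irrigation and 298, 6508 and 10889 under drought. Arrays overlapped in both parents, since WL711 drought array 1 was the lowest of its cultivar's arrays and C306 drought array 2 lay above irrigated array 1. TaAffx.128414.181.S1_at had 2479.8, 2676 and 2083 in irrigated C306 and 593, 1339 and 614 under drought, and 518, 384 and 478 and 546, 2240.5 and 2293 in WL711. Its groups were apart in both parents, with WL711 drought array 1 only just above the irrigated arrays. TaAffx.128414.37.S1_at, the other rbcl member, was dim, at 87.7 or lower on every array, and was not tested. Reads of 1 gene through probe sets that behave differently make each of these values uncertain as a measure of rbcl as a whole.

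LOC543369, read by Ta.116.1.S1_at, had signals of 145.4, 197 and 210.5 in irrigated C306 and 41.8, 147 and 60.7 under drought, and of 69.9, 23.7 and 42.5 and 152, 130.4 and 105 in WL711. The WL711 groups were apart and the C306 groups touched, drought array 2 lying above irrigated array 1. A further probe set of the gene, Ta.18648.1.S1_at, was no member and had a score of 0.55.

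Among the unnamed members, the highest score, 2.88, was that of Ta.3830.2.S1_at, and 3 of the 5 probe sets of the cluster Ta.3830 were members. The brightest of them, Ta.3830.2.S1_x_at, had signals of 4218, 3622 and 3588 in irrigated C306 and 251, 132 and 157 under drought. In WL711 it had 991, 1049.6 and 1189.7 under irrigation and 1835, 4287 and 4083 under drought. The C306 drought arrays were thus the lowest of all 24, and both parents' groups were apart. Ta.3830.2.S1_at was dimmer, at 736, 369 and 615 and 9.8, 7.8 and 58.6 in C306 and 59.3, 78.9 and 176 and 198, 939 and 682 in WL711, irrigated first. Ta.3830.1.S1_a_at, a probe set of the cluster that was no member, differed by log2 3.64 in C306 and by 0.68 in WL711.

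Ta.11025.1.A1_at, with the next highest score, had 764, 569 and 636 in irrigated C306 and 81.5, 54.9 and 136 under drought. In WL711 it had 3.5, 6.3 and 3.4 under irrigation and 34.7, 211 and 280.1 under drought. All groups were apart, and irrigated WL711 was close to the bottom of the scale. TaAffx.24911.1.S1_at showed the largest C306 difference of the set, with 11900.2, 13036 and 12934 under irrigation and 99.5, 52.2 and 21.8 under drought. Its WL711 signals were 49.2, 2.3 and 2.7 and 62.1, 4.2 and 71.2, so its WL711 difference of log2 2.06 lay among overlapping arrays near the floor. Of the other members with the 10 highest scores, Ta.18022.1.S1_x_at was bright, at 11023, 2744 and 10073 and 1515, 2708 and 2582 in C306, and Ta.20250.1.S1_at, Ta.4466.1.S1_at and Ta.16190.1.A1_x_at stayed at or under 316 on every parental array.

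Members reached the pattern in several ways. In 7 members the 3 drought arrays of C306 were below all other arrays (1.78% of all probe sets), in 11 the irrigated arrays of WL711 were (0.753%), in 12 the irrigated arrays of C306 were above all others (0.960%), and in 0 were the drought arrays of WL711 above all others (0.182%). Without WL711 drought array 1 the last count was 14 (2.13%). TaAffx.133282.1.A1_at belonged to the first kind, with 12, 2 and 3.8 in C306 under drought. Its signals were 736, 589 and 725 in irrigated C306, 789, 749 and 769 in irrigated WL711 and 562, 2863 and 3272 in WL711 under drought. Of all groups, C306 under drought was the one near the bottom of the scale, and WL711 drought array 1 lay below the irrigated arrays of WL711. Ta.28584.1.A1_at showed both of the next kinds, with 50.9, 58.6 and 53.8 in irrigated WL711 against 2086, 2077 and 1893 in irrigated C306. Over the whole array, 2 probe sets, no members, were under 100 on all C306 drought arrays and over 1000 on all other arrays, against 1 for irrigated C306 and 0 for each of the other groups, by bounds chosen after the data were seen. Whether low signals on the C306 drought arrays went with the water regime or with the plant material of those arrays was not tested, and the C306 differences carry that limit.

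For 4 members WL711 drought array 1 was over 2 log2 units above both other drought arrays of WL711 (0.681% of all probe sets), and for 15 it was over 2 units below both (1.39%). Ta.1112.1.S1_at, named after its values were seen, had 2.1, 17.9 and 21.7 in irrigated WL711 and 5079, 44.8 and 82.2 under drought. It had 5633, 6502 and 6271 in irrigated C306 and 79.1, 45.2 and 57.9 in C306 under drought. WL711 drought array 1 stood at the level of irrigated C306 and arrays 2 and 3 stood with the C306 drought arrays. Ta.23191.1.S1_at, chosen likewise, had 3580.3, 76.6 and 16.3 in WL711 under drought, against 17.4, 38.5 and 3.7 under irrigation. Of the 53 probe sets that were low in irrigated WL711 and high in irrigated C306, 6 were members.

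**Figure D3:**
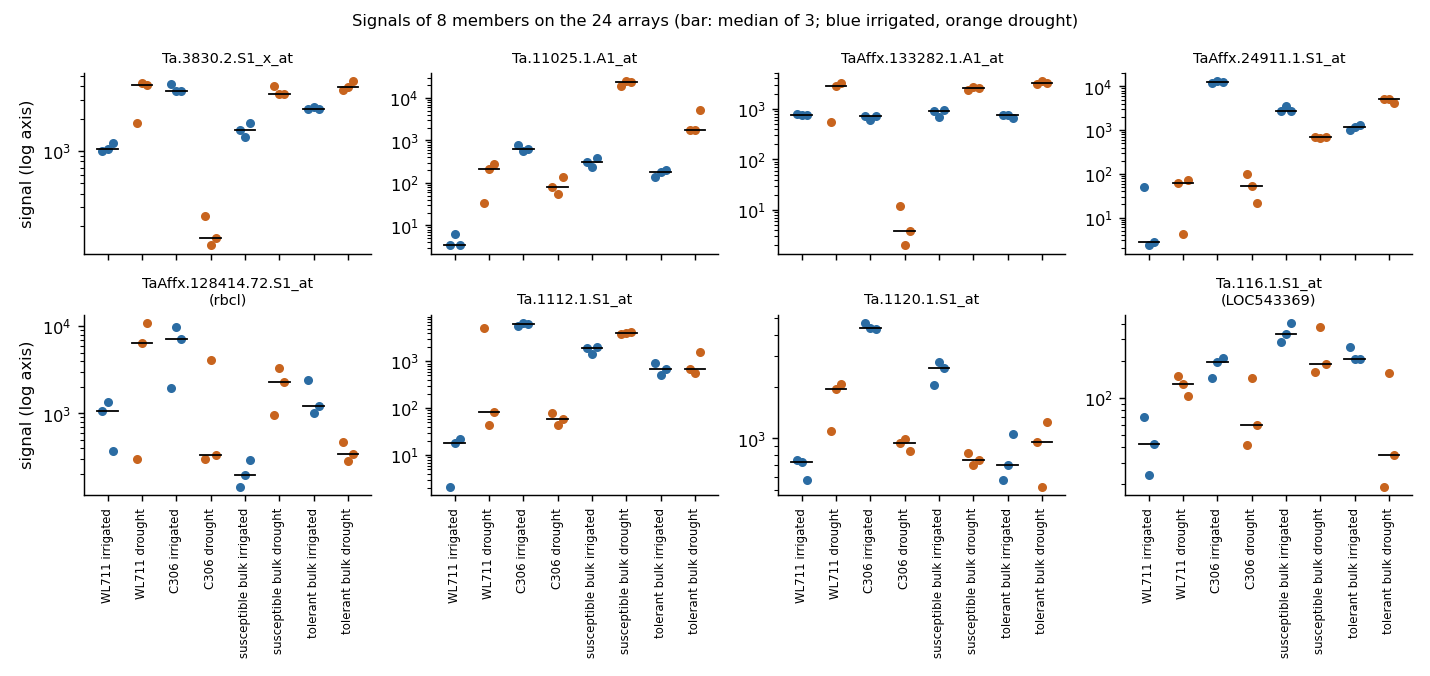
Signal (log axis) of 8 members on each of the 24 arrays, irrigated in blue and drought in orange, with the median of each group of 3 as a bar. In Ta.3830.2.S1_x_at and TaAffx.133282.1.A1_at the C306 drought arrays lie below all others, and in Ta.1112.1.S1_at the first WL711 drought array lies apart from the other WL711 arrays.

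The bulks took no part in the rule, so their arrays could be tested. The limma model was fitted to all 36669 probe sets above the filter, with 1 mean for each of the 8 groups of 3 arrays, each array centred on its median, p-values adjusted by the Benjamini-Hochberg method over all of them, and 0.05 as the threshold. A change is given as log2 ± its standard error, on the log2(signal + 16) scale, which understates the change of dim probe sets. A member could enter only if its mean was high enough, so the 93 tested are not all members. In a leaf sample, fewer cells of a type and less RNA per cell cannot be told apart.

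In the susceptible bulk, 21 of 93 tested members rose under drought (22.6%, against 12.7% of all probe sets tested) and 5 fell (5.38%, against 11.2%). Their median change was log2 0.37, against -0.02 over all, and 66 of 93 were positive (71.0%, against 48.9% of all tested). Over all 150 members, tested or not, the median was 0.26 against -0.03. All 3 drought arrays were above all irrigated arrays in 40 of the 150 (26.7%, against 15.9% of all probe sets), and below them in 16 (10.7%, against 20.3%). The 3′ minus 5′ signal of control transcripts, a sign of RNA quality, parted the same groups for 2 of 3 transcripts. For GAPDH it was -0.70, -0.63 and -1.71 (log2) on the irrigated arrays and -0.06, -0.53 and 0.03 on the drought arrays, and for actin -0.26, -0.70 and -1.27 and 0.39, 0.05 and -0.19. For EF1a the regimes overlapped, at -0.06, -0.22 and 0.42 and -1.32, -0.52 and 2.22. The part of these signals in the result was not tested.

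The largest rise was that of Ta.11025.1.A1_at, from 305.9, 239 and 396 on the irrigated arrays to 19062, 24502 and 23664 on the drought arrays. The groups were far apart, and the drought signals were far above any on the parental arrays, where the highest was 764. Its change was 74.1-fold (log2 6.21 ± 0.42, adjusted p = 1.28e-10) by limma. TaAffx.55315.1.S1_at went from 1.6, 59.9 and 12.3 to 584, 1329 and 939 (log2 4.87 ± 0.72, adjusted p = 1.76e-05). Its level on the other 21 arrays was 34.7, under the filter of 39.1, so it was tested only through the group where it is high and its call is no support for the count, and it was the 1 such case among the 21. Ta.28659.1.S1_x_at went from 1063, 1234 and 965 to 15477, 13119 and 14065 (log2 3.80 ± 0.60, adjusted p = 4.13e-05). Both were separate on all arrays, and Ta.28659.1.S1_x_at was above every parental array under drought in this bulk. Ta.14215.1.A1_at rose from 245, 325 and 288 to 3309.5, 2933 and 3175 (log2 3.49 ± 0.47, adjusted p = 5.72e-06).

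Of the rbcl members, TaAffx.128414.72.S1_at rose in the susceptible bulk from 143, 196 and 294 to 958, 3328 and 2294 (log2 3.27 ± 0.95, adjusted p = 0.0136), by limma. The arrays were apart, but the call was lost without irrigated array 1 (adjusted p = 0.0543) and without drought array 2 (adjusted p = 0.0619), the adjusted p running from 4.04e-06 to 0.0619 over 34 alternatives. TaAffx.128414.181.S1_at rose from 377, 279 and 383 to 1037, 2675 and 1360.1 (log2 2.23 ± 0.44, adjusted p = 0.000561), and its call was kept in all 34. Of all 17 rbcl probe sets tested, 3 rose and 0 fell, with a median of 0.89. Among the other members with the 10 highest scores, limma called a rise of Ta.3830.2.S1_x_at, from 1562, 1358 and 1813 to 3977, 3378 and 3415 (log2 1.29 ± 0.22, adjusted p = 0.000145), and of Ta.16190.1.A1_x_at (log2 2.20 ± 0.54, adjusted p = 0.00378). A rise was also called for Ta.3830.2.S1_at (log2 1.24 ± 0.45, adjusted p = 0.0476), close to the threshold and lost in 17 of 34 alternatives, 13 of them the loss of a single array.

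The 5 members that fell in the susceptible bulk were all bright, with a mean signal above 1000. Ta.26907.1.S1_at went from 12315, 14416 and 11854 to 3149, 2594 and 2844 (log2 -2.06 ± 0.22, adjusted p = 2.34e-07), and TaAffx.24911.1.S1_at from 2708, 3631 and 2690.3 to 680.3, 652 and 688 (log2 -2.02 ± 0.47, adjusted p = 0.00256). With a pseudocount of 1 the fit no longer called TaAffx.24911.1.S1_at (adjusted p = 0.0795), although its groups were as far apart. The cluster Ta.1120 had 2 members of 3 probe sets, and both fell, Ta.1120.1.S1_at from 2044, 2766 and 2580.4 to 828, 699.7 and 752 (log2 -1.57 ± 0.25, adjusted p = 6.05e-05) and Ta.1120.1.S1_x_at by log2 1.26 ± 0.23 (adjusted p = 0.000232). They share a cluster and are not independent. Ta.30807.3.S1_at, the brightest member, fell by log2 0.49 ± 0.15 (adjusted p = 0.0173), and its call was lost without irrigated array 2 (adjusted p = 0.0576), irrigated array 3 (0.0567) or drought array 2 (0.05), in a range of 0.00502 to 0.0576.

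In the tolerant bulk, 12 of 93 tested members rose under drought (12.9%, against 11.1% of all probe sets tested) and 4 fell (4.30%, against 7.6%). The median change was log2 0.30, against 0.00 over all, with 60 of 93 positive (64.5%, against 50.0% of all tested), and over all 150 members it was 0.03, against -0.08. The drought arrays were above all irrigated arrays in 18 of the 150 (12%, against 11.2%) and below them in 12 (8%, against 14%). The shares of rises were near those of all probe sets, while falls were fewer and positive changes more frequent. The lean was not to the direction of C306, the tolerant parent, which the rule had chosen as lower. With arrays centred over all probe sets instead, 5230 probe sets rose and 1462 fell in this bulk, against 4055 and 2786, with a median of 0.16, and 2 members fell. The EF1a 3′ minus 5′ signal was 2.80, 1.42 and 2.35 (log2) on the irrigated arrays and -1.36, 0.89 and 0.02 on the drought arrays. Those of GAPDH and actin overlapped between the regimes, and the part of these signals in the result was not tested.

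Ta.11025.1.A1_at again rose most, from 139, 179.8 and 206 to 1809.9, 1730.4 and 5245, 13.6-fold (log2 3.76 ± 0.42, adjusted p = 1.1e-06) by limma. Ta.12055.1.S1_s_at rose from 35.4, 144.6 and 157 to 295, 636 and 663 (log2 2.20 ± 0.39, adjusted p = 0.00031), and TaAffx.133282.1.A1_at from 765, 767 and 648 to 3047, 3485 and 3208 (log2 2.14 ± 0.36, adjusted p = 0.000176). All 3 were apart between regimes. The irrigated signals of TaAffx.133282.1.A1_at in this bulk were close to those of both irrigated parents. Its drought signals were close to WL711 drought arrays 2 and 3 and far above WL711 drought array 1 and C306 under drought. TaAffx.24911.1.S1_at rose from 1022, 1168 and 1309.7 to 5215, 5196 and 4269 (log2 2.06 ± 0.47, adjusted p = 0.00331), a call that a pseudocount of 1 ended (adjusted p = 0.0857). Ta.20250.1.S1_at rose from 64.8, 25.5 and 3.5 to 136, 178 and 278 (log2 2.35 ± 0.58, adjusted p = 0.00567). TaAffx.55315.1.S1_at rose as well (log2 2.30 ± 0.72, adjusted p = 0.0266), a call lost without irrigated array 2 (adjusted p = 0.0672), irrigated array 3 (0.0841) or drought array 3 (0.168), and with a pseudocount of 1 (0.111), the lowest adjusted p of the alternatives being 0.00845.

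Of the 4 members that fell in the tolerant bulk, Ta.26907.1.S1_at changed most, from 36284, 37596 and 37309.5 to 6119, 6678 and 4562 (log2 -2.69 ± 0.22, adjusted p = 2.63e-08) by limma. It was the only member to fall in both bulks, while in the parents it was high in irrigated C306, at 9486, 9812 and 10541, and in WL711 under drought, at 13133, 8264 and 7765. LOC543369 fell from 257, 206 and 208 to 19, 161 and 34.7 (log2 -1.81 ± 0.49, adjusted p = 0.0105), the direction of C306, but the call was lost without drought array 1 (adjusted p = 0.0739) or 3 (0.0587), in a range of 0.00037 to 0.0739. Its other probe set, Ta.18648.1.S1_at, changed by log2 -0.32 ± 0.34 (adjusted p = 0.567). Ta.8782.2.S1_x_at fell by log2 1.96 ± 0.64 (adjusted p = 0.0329) and Ta.28584.1.A1_at by 0.71 ± 0.23 (adjusted p = 0.0302). The call of Ta.8782.2.S1_x_at was lost without any of the irrigated arrays and without drought arrays 1 and 3 (adjusted p 0.0548 to 0.14), and that of Ta.28584.1.A1_at without any of the irrigated arrays and without drought arrays 2 and 3 (0.0528 to 0.103). The rbcl members were not called in this bulk, at log2 -1.97 ± 0.95 (adjusted p = 0.158) and -0.78 ± 0.44 (adjusted p = 0.235). Without WL711 drought array 1, the fit called TaAffx.128414.72.S1_at lower (adjusted p = 0.0474), in a range of 0.00106 to 0.35 over the alternatives. Of all 17 rbcl probe sets tested, 1 rose and 1 fell in this bulk, with a median of -0.72.

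Set side by side, 33 of 93 tested members were called in at least 1 bulk (35.5%, against 32.2% of all probe sets tested) and 60 in neither. They rose in both bulks in 6 cases (6.45%, against 6.24%) and fell in both in 1 (1.08%, against 3.92%). In the main fit no member was called higher in the susceptible and lower in the tolerant bulk, the pattern of the parents (0%, against 0.142%). TaAffx.128414.72.S1_at was called both ways by limma in 2 alternatives. These were the bulk arrays alone (adjusted p = 0.00106 for its fall in the tolerant bulk) and the fit without WL711 drought array 1 (0.0474). The reverse, lower in the susceptible and higher in the tolerant bulk, was called in 2 members (0.0927% of all), TaAffx.24911.1.S1_at and Ta.30807.3.S1_at. By sign alone, with no test, 21 members were positive in the susceptible and negative in the tolerant bulk (22.6%, against 15.5%), and 45 were positive in both (48.4%, against 33.4%). By the rule's own threshold on group medians, 3 of the 150 showed the parents' pattern in the bulks (2%, against 0.283%): TaAffx.128414.72.S1_at, TaAffx.25100.1.S1_at and Ta.15961.1.S1_at. Members passed that threshold more often than all probe sets in either direction. The susceptible bulk was raised in 28 (18.7%, against 6.10%) and lowered in 15 (10%, against 5.46%). The tolerant bulk was lowered in 14 (9.33%, against 7.74%) and raised in 18 (12%, against 5.50%).

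**Figure D4:**
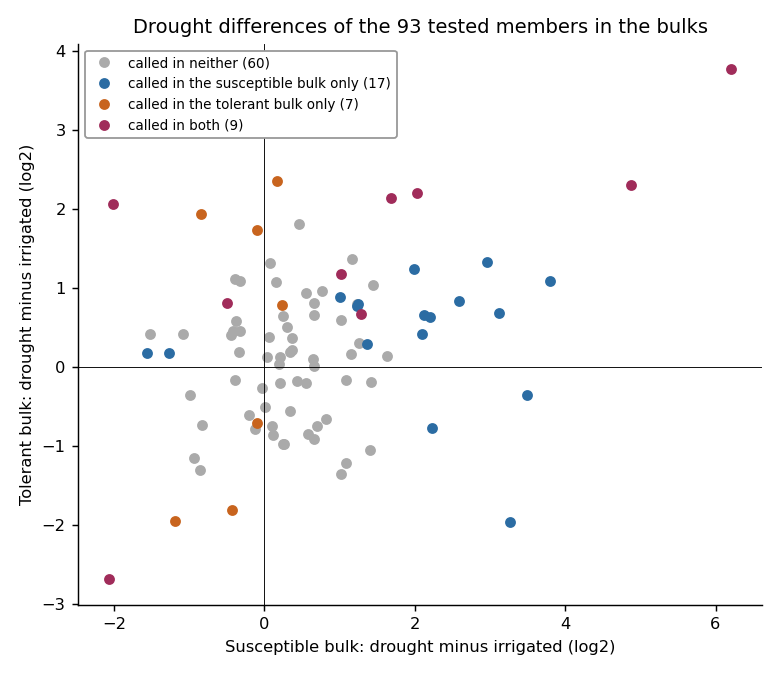
Change in the susceptible bulk (horizontal axis) and in the tolerant bulk (vertical axis), drought minus irrigated in log2, for the 93 tested members, coloured by limma calls. The lower right, where the parents' pattern would place members, holds 21 of the 93 (22.6%, against 15.5% of all probe sets tested). Of these, 0 were called in both bulks. Ta.11025.1.A1_at lies far to the upper right.

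The level of a member between the parents was also read in the bulks. The rule chose the parents' values as far apart, so a bulk falls between them more easily here than in other probe sets, and the counts are a description. Under irrigation, of the 148 members with C306 above WL711, the median signal of the susceptible bulk lay between the parents in 119 (80.4%, against 44.2% of all probe sets with that order of the parents), above both in 13 and below both in 16. For the tolerant bulk the counts were 102 (68.9%, against 28.6%), 29 and 17. The median gap between the parents was log2 1.81 in these members and 0.43 in those probe sets. Under drought, of the 145 members with WL711 above C306, the susceptible bulk lay between in 81 (55.9%, against 29.9%), above in 39 and below in 25, and the tolerant bulk in 85 (58.6%, against 25.2%), 34 and 26. Without WL711 drought array 1, of 140 members, the counts were 77, 40 and 23 for the susceptible and 84, 33 and 23 for the tolerant bulk. On a scale from 0 at the lower to 1 at the higher parent, the median place was 0.474 for the susceptible and 0.561 for the tolerant bulk under irrigation, and 0.657 and 0.557 under drought.

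Between the bulks under irrigation, 11 of 93 tested members were higher in the tolerant bulk (11.8%, against 6.43% of all probe sets tested) and 7 were lower (7.53%, against 7.65%). The median was 0.08, against 0.05 over all. Here centring over all probe sets moved the split of all calls from 2358 higher and 2807 lower to 771 and 6059, with a median shift of -0.30, and left 5 members higher. With no centring, 6 of 93 members were higher, close to the share over all probe sets tested (2214 of 36669). The EF1a 3′ minus 5′ signal parted these groups, at 2.80, 1.42 and 2.35 (log2) in the tolerant and -0.06, -0.22 and 0.42 in the susceptible bulk. Those of GAPDH and actin overlapped, and the part of these signals in the result was not tested. TaAffx.128414.181.S1_at was higher in the tolerant bulk, with 2569.5, 1287 and 854 against 377, 279 and 383 (log2 2.10 ± 0.44, adjusted p = 0.00241) by limma. Of the 17 rbcl probe sets tested, 8 were called higher in the tolerant bulk and 0 lower, with a median of 1.39. TaAffx.128414.72.S1_at was higher too (log2 2.84 ± 0.95, adjusted p = 0.0472), close to the threshold and lost in 19 of 34 alternatives, 15 of them the loss of a single array. Ta.26907.1.S1_at, with 36284, 37596 and 37309.5 against 12315, 14416 and 11854, was also higher (log2 1.63 ± 0.22, adjusted p = 4.06e-05). The largest deficit in the tolerant bulk was that of Ta.11760.1.S1_at, with 9.7, 15.4 and 13.8 against 177, 103 and 123 (log2 -2.25 ± 0.58, adjusted p = 0.0108), a call lost without susceptible bulk irrigated array 1 (adjusted p = 0.0565, in a range from 0.0031). Ta.24747.1.A1_x_at, with 67.6, 73.7 and 71.6 against 229, 343 and 296 (log2 -1.69 ± 0.41, adjusted p = 0.00744), and Ta.1120.1.S1_at, with 576, 704 and 1062 against 2044, 2766 and 2580.4 (log2 -1.57 ± 0.25, adjusted p = 0.000232), kept their calls in all 34.

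Further calls between the irrigated bulks were lost in some alternatives. Ta.22589.1.S1_at was higher in the tolerant bulk, with 205, 260.1 and 342 against 41.9, 52 and 107 (log2 1.93 ± 0.52, adjusted p = 0.0136) by limma, a call lost without susceptible bulk array 1 (adjusted p = 0.0721) or tolerant bulk array 3 (0.0564), in a range from 0.00101. Ta.15961.1.S1_at (log2 1.96 ± 0.64, adjusted p = 0.0397) and Ta.11882.1.S1_at (log2 1.81 ± 0.58, adjusted p = 0.0366) were higher but lost their calls in 7 of 33 and 9 of 33 alternatives. Ta.15961.1.S1_at had a level of 37.0 outside the irrigated tolerant bulk, under the filter, and so was tested only through the group where it is high. Ta.20250.1.S1_at (log2 -1.81 ± 0.58, adjusted p = 0.0371) and TaAffx.92223.1.A1_at (log2 -1.49 ± 0.46, adjusted p = 0.0323) were lower and lost theirs in 7 of 33 each. Of these 4, the loss of susceptible bulk irrigated array 1 ended every call, with adjusted p from 0.0848 to 0.133, over ranges that reached from 0.00705 to 0.198.

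Under drought, 2 of 93 tested members had a higher signal in the tolerant bulk than in the susceptible one (2.15%, against 2.49% of all probe sets tested) and 5 were lower (5.38%, against 3.52%). The median was -0.15, against 0.03 over all. TaAffx.24911.1.S1_at was higher, with 5215, 5196 and 4269 against 680.3, 652 and 688 (log2 2.83 ± 0.47, adjusted p = 0.000562) by limma. Ta.26907.1.S1_at was higher (log2 1.00 ± 0.22, adjusted p = 0.00823), a call lost without susceptible bulk drought array 2 (adjusted p = 0.0557) or tolerant bulk drought array 1 (0.0553) or 2 (0.0732), in a range from 0.000458. The largest deficit was that of Ta.11025.1.A1_at (log2 -3.12 ± 0.42, adjusted p = 4.31e-05), whose groups were given above and lay far apart, and Ta.14215.1.A1_at was lower as well (log2 -2.37 ± 0.47, adjusted p = 0.00328). LOC543369 had 19, 161 and 34.7 against 164, 379.7 and 189.9 and was called lower (log2 -1.85 ± 0.49, adjusted p = 0.0228), but not without susceptible bulk drought array 2 (adjusted p = 0.134) or 3 (0.0555), nor without tolerant bulk drought array 1 (0.154) or 3 (0.0599), in a range from 0.00117. Ta.22444.1.S1_at, with 31.9, 84.6 and 181 against 472, 581 and 454 (log2 -2.39 ± 0.69, adjusted p = 0.0381), lost its call in 6 of 34 alternatives, 5 of them the loss of a drought array of the bulks (adjusted p 0.0947 to 0.2), and Ta.18716.1.S1_at (log2 -2.22 ± 0.67, adjusted p = 0.0483) lost it in 20 of 33. Without WL711 drought array 1 in the fit the counts were 4 higher and 8 lower, and counts over all probe sets are not given for that fit.

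The drought response differed between the bulks in 9 of 93 tested members. It was larger, or more positive, in the tolerant bulk in 5 (5.38%, against 0.881% of all probe sets tested) and smaller, or less positive, in 4 (4.30%, against 1.73%). The median difference of response was log2 -0.42, against 0.02 over all, and 34 of 93 were positive (36.6%, against 51.3% of all tested). The EF1a values of the irrigated bulks given above enter this comparison too. The direction of the parents, C306 minus WL711, was negative in every member by choice, and the 4 smaller responses share that sign. They were those of both tested rbcl members, Ta.14215.1.A1_at and Ta.11025.1.A1_at. Ta.14215.1.A1_at rose in the susceptible bulk and went from 818, 759.7 and 722 to 449.5, 499.5 and 925 in the tolerant bulk, a difference of response of log2 -3.85 ± 0.67 (adjusted p = 0.00157) by limma. For TaAffx.128414.181.S1_at the tolerant bulk went from 2569.5, 1287 and 854 to 578, 577 and 1616, and the difference was -3.02 ± 0.62 (adjusted p = 0.00784). These tolerant bulk groups overlapped, and drought array 3 was the high one. TaAffx.128414.72.S1_at went from 2435, 1023 and 1203 to 466, 282 and 340.2, with all drought arrays below the irrigated ones, and differed by -5.24 ± 1.35 (adjusted p = 0.0345). Its call was lost on leaving out any of 10 of the 12 bulk arrays (adjusted p 0.0522 to 0.0912), all but susceptible bulk drought array 1 and tolerant bulk drought array 1. Over all 34 alternatives the adjusted p ranged from 1.3e-05. Ta.11025.1.A1_at rose in both bulks and by less in the tolerant bulk, by log2 -2.45 ± 0.59 (adjusted p = 0.0232). It lost its call with a pseudocount of 1 (adjusted p = 0.072) and without any of 9 of the 12 bulk arrays (0.0508 to 0.0703), all but susceptible bulk irrigated array 3, tolerant bulk irrigated array 1 and tolerant bulk drought array 3, in a range from 0.000516.

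The 5 larger responses ran against the parents' direction. TaAffx.24911.1.S1_at fell in the susceptible and rose in the tolerant bulk, a difference of log2 4.07 ± 0.67 (adjusted p = 0.000865) by limma, not called with a pseudocount of 1 (adjusted p = 0.0654). Ta.24747.1.A1_x_at went from 229, 343 and 296 to 119.8, 156 and 150.4 in the susceptible bulk and from 67.6, 73.7 and 71.6 to 306.4, 267 and 384 in the tolerant bulk. The arrays were apart in both bulks, in opposite directions, with a difference of 2.77 ± 0.59 (adjusted p = 0.00901). Ta.30807.3.S1_at went from 16789.6, 17957 and 17696 to 10687, 12248 and 11763 in the susceptible bulk and from 6872, 6578 and 7664 to 11380.1, 9980.3 and 16065 in the tolerant bulk. It too moved opposite ways with no overlap in either bulk, by 1.29 ± 0.21 (adjusted p = 0.000873). In the Ta.1120 cluster, Ta.1120.1.S1_at fell in the susceptible bulk and went from 576, 704 and 1062 to 948, 522 and 1239 in the tolerant bulk, where the regimes overlapped, and the responses differed by 1.73 ± 0.36 (adjusted p = 0.00772). For Ta.1120.1.S1_x_at the difference was 1.43 ± 0.33 (adjusted p = 0.0154), lost without susceptible bulk drought array 2 (adjusted p = 0.0545, in a range from 0.00307).

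**Figure D5:**
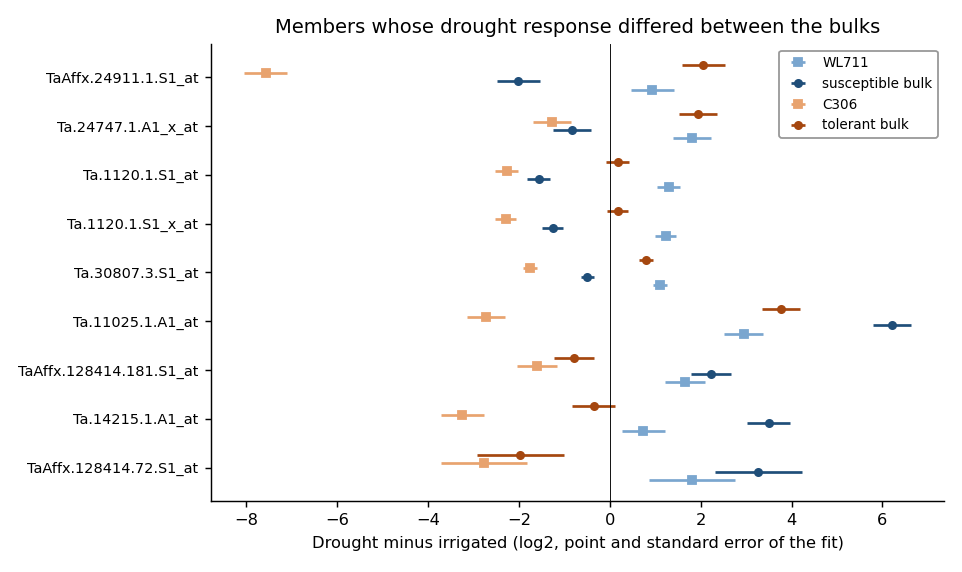
Drought minus irrigated in log2, with the standard error of the limma fit, in the parents (squares, shown as a description) and in the bulks (circles) for the 9 members whose drought response differed between the bulks. In TaAffx.24911.1.S1_at, Ta.24747.1.A1_x_at and Ta.30807.3.S1_at the bulks lie on opposite sides of 0, with the susceptible bulk on the side of C306. The same holds for both Ta.1120 probe sets. Both rbcl members and Ta.14215.1.A1_at also have the bulks on opposite sides, with the susceptible bulk on the side of WL711. In the tolerant bulk the changes of the Ta.1120 probe sets, the rbcl members and Ta.14215.1.A1_at were not called in the main fit.

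On the bulk arrays, which the rule did not use, the tested members shared little variation, though more in levels than all tested probe sets. Over the 12 bulk arrays the mean pairwise correlation of the 93 tested members was 0.0501 for their levels, against 0.00558 over all tested probe sets, and 0.00701 against 0.0217 once group means were removed. These are descriptions over arrays that share scaling and depth of signal. Few members were on the gene lists, since few had a name. Of 10 lists, photosynthesis had 3 members, all rbcl, among 35 probe sets, and the dehydrins and late embryogenesis abundant proteins, which protect cells during drying, had 0 among 10. For comparison, 3 of the 5 tested probe sets of that protective list rose and 0 fell in the susceptible bulk, and 2 rose and 0 fell in the tolerant bulk. Of 24 tested photosynthesis probe sets, 3 rose and 2 fell in the susceptible bulk, and 1 rose and 5 fell in the tolerant bulk. The lists of starch and fructan enzymes, methyl transfer, defence, antioxidants, translation, histones and tubulins, chaperones and grain storage held 0 members each.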

How the data were processed

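RNA of 24 flag leaf samples was measured on Affymetrix wheat arrays, from 8 ug of total RNA each per the labels' protocols. The deposited values are linear intensity, for which the submitters' processing notes name GCOS 1.2, and the mean signal after trimming 2% at each end was 500.1 on every array, so the arrays had been scaled to it before deposit. No detection calls were used, so low values and background could not be told apart. Precision is limited by the number of arrays. Groups came from the sample labels. Of 61290 probe sets, 175 control and reporter probe sets were left out.

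The members were chosen on uncentred log2(signal + 16). For the tests, the 60% of probe sets with the highest mean were kept, their median was subtracted on each array, and limma 3.58.1 in R 4.3.3 fitted 1 mean per group, two-sided, with a trend of variance on intensity (16 residual degrees of freedom, 8.32 prior). On data simulated for the susceptible bulk, with 36669 probe sets, the fit called 20 of 100 probe sets changed by log2 1, 69 of 100 changed by log2 2, and 5 unchanged ones. Far more probe sets were called in the real susceptible bulk, with 4675 rises and 4099 falls. The adjustment differs with that number, so these rates do not measure the sensitivity of the tests above. A pseudocount of 16 understates changes of dim probe sets.

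The members, gene lists and tests were chosen with earlier results of these data known. Members were named if the annotation gave them a gene, if they had the 10 highest scores or lay at the threshold, if they were among the 5 largest called rises or falls of a bulk comparison without overlap, or if they shared a cluster; other names were chosen after the values were seen. Names came from the platform annotation, with 770 of 771 genes found in RefSeq assembly GCF_018294505.1. Replicate numbers did not pair the arrays: over 84 pairs of same-numbered arrays the correlation of their deviations ran from -0.14 to 0.19, and 6 were over 0.1. No 2 arrays were identical. Alternatives changed the pseudocount, filter, centring, normalization, arrays and choice of members.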

Additional observations from a re-analysis of the deposited data

Results flagged for a closer look

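The drought response differed between the bulks, by a limma test of the difference itself, in 9 tested members. By sign and not by size, the response in the tolerant bulk was larger, or more positive, in 5 and smaller, or less positive, in 4. The smaller responses were those of TaAffx.128414.72.S1_at (log2 -5.24), Ta.14215.1.A1_at (log2 -3.85), TaAffx.128414.181.S1_at (log2 -3.02) and Ta.11025.1.A1_at (log2 -2.45). Both TaAffx.128414 probe sets read rbcl, so they are not independent. The larger responses were those of Ta.30807.3.S1_at (log2 1.29), Ta.1120.1.S1_x_at (log2 1.43), Ta.1120.1.S1_at (log2 1.73), Ta.24747.1.A1_x_at (log2 2.77) and TaAffx.24911.1.S1_at (log2 4.07). Both Ta.1120 probe sets share a cluster.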

How the results depend on the processing

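With the replicate number as a block, the counts stayed at 21 and 5 in the susceptible bulk, 12 and 4 in the tolerant bulk, 11 and 7 between the irrigated bulks and 5 and 4 for the response, higher first, and the members lower in the tolerant bulk under drought went from 5 to 4. The numbers did not pair the arrays, so the block is no correction.

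Other choices of members changed how many were tested: 50 of the 75 highest scores, 160 of the 300 highest, 84 on centred values, 119 by group means and 83 without WL711 drought array 1, against 93. Rises in the susceptible bulk were 30% of those tested among the 75 highest and 25% among the 300 highest, against 22.6% of the 93 and 12.7% of all probe sets, and rises in the tolerant bulk were 18% and 18.8%, against 12.9% and 11.1%. For the susceptible bulk, the 300 highest scores gave 40 members that rose, and the falls were 3 with members chosen on centred values, 1 among the 75 highest scores and 2 with members chosen without WL711 drought array 1, an alternative chosen after seeing the data. For the tolerant bulk, rises were 19 with members by group means and 30 among the 300 highest scores, and falls were 2 with centring over all probe sets, 7 by group means, 1 among the 75 highest and 1 with members chosen without WL711 drought array 1. Between the irrigated bulks, members higher in the tolerant bulk were 5 with centring over all probe sets, 6 with no centring and 5 among the 75 highest. With no centring, 2214 of all 36669 probe sets were higher, against 2358 in the main fit. Members lower were 4 when only the highest 40% were tested, 3 among the 75 highest and 14 among the 300 highest. Under drought, members higher were 4 with quantile normalization, 1 by group means, 1 among the 75 highest and 0 with members chosen without WL711 drought array 1. Quantile normalization called 1530 of all 36669 probe sets higher, against 912 in the main fit. Members lower were 3 with a pseudocount of 1, 9 with the bulk arrays alone, 10 by group means, 3 among the 75 highest and 13 among the 300 highest. For fits with another pseudocount or filter, or with arrays left out, counts over all probe sets are not given here. Larger responses were 2 with members on centred values, 2 among the 75 highest and 3 with members chosen without WL711 drought array 1, and smaller ones were 8 on centred values, 7 by group means and 10 among the 300 highest. The median parental difference was 2.31 in C306 and 2.51 in WL711 with a pseudocount of 1, and 0.91 and 0.89 with 64. The cause of these shifts was not tested, beyond the length of the member list. The lists on centred values and by group means shared 101 and 70 of the 150 members.

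When 1 array was left out in turn, rises ran from 16 to 23 and falls from 4 to 6 in the susceptible bulk, and rises from 9 to 14 and falls from 1 to 5 in the tolerant bulk. Between the bulks, higher members ran from 5 to 12 and lower from 4 to 9 under irrigation, and from 1 to 4 and 2 to 8 under drought. Larger responses ran from 4 to 5 and smaller from 2 to 5. The median difference ran from 1.42 to 1.57 in C306 and from 1.28 to 1.69 in WL711, lowest without WL711 drought array 2. Of 51 named calls, 26 were kept in every alternative run, 25 were lost in at least 1, and 0 were reversed. Most members are dim, and 57 could not be tested.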
